A study of Rattus norvegicus with 14 samples.

Results

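The levels of 10 liver genes that NRF2 is known to regulate were followed: the quinone reductase gene Nqo1, the carbonyl reductase genes Cbr1 and Cbr3, the thioredoxin-linked genes Txnrd1, Txn1 and Srxn1, the epoxide hydrolase gene Ephx1, and Osgin1, Pir and Trim16. They were picked by name, as probes of the array that GEO's platform annotation gives exactly 1 gene symbol equal to a listed gene, with the brightest probe (highest mean over 14 arrays) standing for each gene. All 10 were found, out of 14506 genes measured. The samples were livers of female lean Zucker rats, heterozygous for the fa allele (fa/+), and about 15 weeks old according to the series title. In the extract group, 7 rats ate a standard diet with 0.05% by weight of a rosemary extract that held 40% carnosic acid for 64 days, and in the control group 7 rats ate the standard diet alone. All rats shared the strain, sex, genotype and base diet. Each rat gave 1 array, so that the values describe the spread between animals. The series title gives 0.5% as the dose, and the sample labels' 0.05% is used here.

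NRF2 is a transcription factor that KEAP1, an adaptor of a CUL3 ubiquitin ligase, marks for degradation. Electrophiles and oxidants modify cysteines of KEAP1, NRF2 then accumulates, pairs with a small MAF protein and binds antioxidant response elements near genes of detoxification and redox repair. In liver such genes encode enzymes that reduce quinones and carbonyls, hydrolyse epoxides and keep thioredoxin reduced with NADPH. Carnosic acid, a catechol-type diterpene that can be oxidised to a quinone, is known as an activator of NRF2 in cultured cells.

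The promoter sequences of 4 genes are shown because 7 of the 10 genes rose together, as given below, and because the core of the antioxidant response element is a short motif that can be looked for by its letters. The motif TGACNNNGC was searched on both strands in RefSeq promoter windows of the GRCr8 assembly, from 250 bases before to 50 bases after each listed start. On the other strand it reads GCNNNGTCA. The 10 genes had 12 windows, of which 4 held a match, in Pir, Txnrd1, Ephx1 and Trim16. Of all 33469 windows of that length, 12.1% held one, and of the 11968 measured genes with a window 14.2% had a match. The 150 bases before the start are printed 5′ to 3′ on the gene's own strand, with each match in capitals. They lie at chrX:33851050-33851199 for Pir, chr7:22755905-22756054 for Txnrd1, chr13:95263118-95263267 for Ephx1 and chr19:52220268-52220417 for Nqo1, all on the minus strand.
Pir: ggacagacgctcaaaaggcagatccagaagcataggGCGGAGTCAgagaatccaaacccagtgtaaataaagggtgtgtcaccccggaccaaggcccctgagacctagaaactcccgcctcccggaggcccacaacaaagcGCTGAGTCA
Txnrd1: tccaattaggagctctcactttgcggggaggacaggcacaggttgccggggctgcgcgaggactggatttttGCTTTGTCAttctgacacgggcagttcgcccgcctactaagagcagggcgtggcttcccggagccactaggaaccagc
Ephx1: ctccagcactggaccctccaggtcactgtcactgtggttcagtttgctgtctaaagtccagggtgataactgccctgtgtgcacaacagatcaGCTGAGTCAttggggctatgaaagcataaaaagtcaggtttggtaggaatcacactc
Nqo1: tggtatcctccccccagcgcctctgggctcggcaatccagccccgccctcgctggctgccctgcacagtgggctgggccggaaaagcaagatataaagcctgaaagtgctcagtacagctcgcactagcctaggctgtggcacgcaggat

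Counted from the start, Pir held matches at -114 to -106 (GCGGAGTCA) and at -9 to -1 (GCTGAGTCA), both in the printed stretch. Txnrd1 held GCTTTGTCA at -78 to -70, and Ephx1 held GCTGAGTCA at -57 to -49. The Trim16 match, GCCTTGTCA at -164 to -156, lay before the 150 bases nearest its start. Txnrd1 and Ephx1 each had a second listed start whose window held no match. For Ephx1 the start with the match lies inside the gene's listed span, and the other start at its upstream end. Both listed starts of Txnrd1 lie inside its span, so the upstream end of that span was not searched. The listed starts of Osgin1 and Trim16 likewise lie inside their spans. Nqo1, shown because its fold was the largest of the 10, held none in this window, as did Srxn1, Osgin1, Cbr1, Cbr3 and Txn1. A match describes letters only, and a window without one says nothing of elements farther away.

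Of the 10 genes, 7 were higher in livers of extract rats than in livers of control rats, and 0 were lower. The largest difference was that of Nqo1, 2.94-fold, followed by Pir (2.54-fold), Txnrd1 (1.88-fold), Ephx1 (1.79-fold), Osgin1 (1.58-fold), Srxn1 (1.45-fold) and Trim16 (1.39-fold). Cbr1, Cbr3 and Txn1 did not pass the test. limma's moderated test was fitted over all 14506 genes, and a gene passed at a Benjamini-Hochberg adjusted p of at most 0.05. Under that rule 3.15% of all genes passed, 2.00% higher and 1.15% lower with the extract. In 6 of the 10 genes the lowest of the 7 extract rats was higher than the highest of the 7 control rats, which held for 1.09% of all genes. The median log2 fold of the 10 was 0.60, and that of all genes was -0.00088. These genes were chosen with earlier results of the same data known, so these shares describe them and are not a test of the list.

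**Figure D1:**
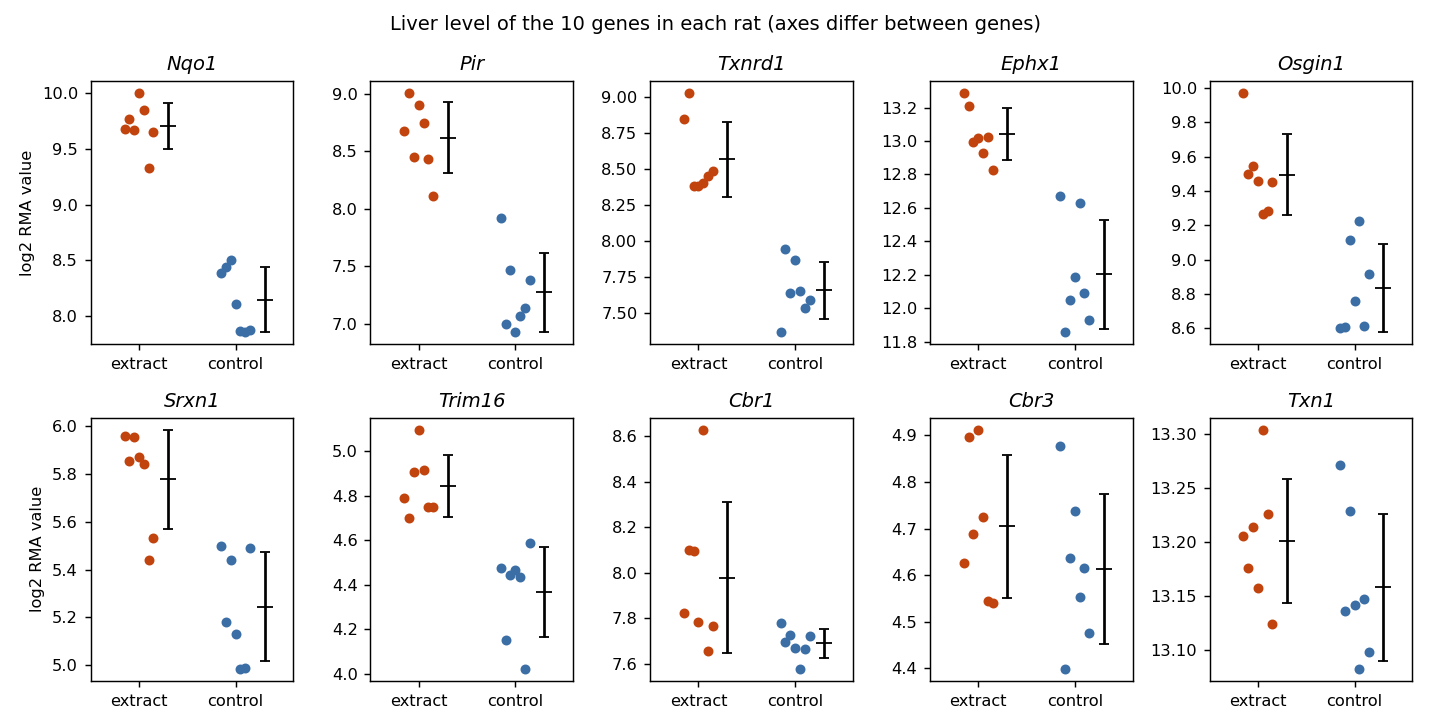
Log2 RMA value (vertical axis) of each of the 10 genes in every rat, with the extract rats left and the control rats right. Points are single rats, the bar beside them is the mean ± SD (n = 7), and axes differ between genes. The genes run by falling fold, and the groups are far apart in Nqo1 and overlap in Srxn1, Cbr1, Cbr3 and Txn1.

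Nqo1 encodes a flavoenzyme that reduces quinones to hydroquinones with NADH or NADPH and so keeps them out of redox cycling. Its log2 value ran from 9.32 to 9.998 with a median of 9.68 in extract rats, against 7.86 to 8.51 with a median of 8.11 in control rats. The lowest extract rat lay 0.82 above the highest control rat, the widest gap among the 10 genes. The means were 9.70 ± 0.21 in extract rats and 8.15 ± 0.29 in control rats (SD, n = 7 each). The log2 fold was 1.55 ± 0.12 (SE), with a 95% interval of 1.30 to 1.81 and limma's adjusted p = 3.59e-07. By size of the rise Nqo1 stood at place 13 of all 14506 genes. Extract rat 4 was highest and extract rat 6 lowest. In control rats the values fell into 3 at 8.39 to 8.51 (rats 1, 2 and 3), 1 at 8.11 (rat 4) and 3 at 7.86 to 7.87 (rats 5, 6 and 7).

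Cbr1 and Cbr3 encode paralogous cytosolic carbonyl reductases, which reduce ketones, aldehydes and some quinones with NADPH. Neither passed the test. Cbr1 ran from 7.66 to 8.63 with a median of 7.82 in extract rats, against 7.58 to 7.78 with a median of 7.69 in control rats. Extract rat 5 stood highest at 8.63, extract rats 2 and 3 came next at 8.10 and 8.09, and the other extract rats lay between 7.66 and 7.82. The SD was 0.33 in extract rats and 0.063 in control rats (n = 7 each), a ratio of 5.25 that is given without a test. Without extract rat 5 the SD in extract rats was 0.18 and the ratio 2.91, a setting added after the values were seen. The log2 fold of Cbr1 was 0.29 ± 0.12 (SE), with a 95% interval of 0.04 to 0.53, an unadjusted p of 0.023 and an adjusted p of 0.23 in limma, and 5 of 7 extract rats exceeded the highest control rat. Without extract rat 5 the log2 fold was 0.18. The array has a second, dimmer Cbr1 probe, which had a log2 fold of 0.24 ± 0.10 (SE), with SDs of 0.26 in extract rats and 0.085 in control rats.

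Cbr3 was dim, between 4.54 and 4.91 with a median of 4.69 in extract rats, against 4.399 to 4.88 with a median of 4.61 in control rats. Both ranges lay below 5.10, the median of all probes. The groups overlapped almost fully, and the log2 fold was 0.09 ± 0.08 (SE; 95% interval -0.09 to 0.27, limma's adjusted p = 0.69). RMA values near background can understate folds, and whether that held for Cbr3 was not tested. How far the probes separate Cbr1 from Cbr3 was not tested.

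Txnrd1 encodes the cytosolic thioredoxin reductase, a selenoprotein that passes electrons from NADPH to thioredoxin, and Txn1 encodes cytosolic thioredoxin itself, which reduces protein disulfides and peroxiredoxins. Of the pair, only the reductase passed the test. Txnrd1 ran from 8.38 to 9.03 with a median of 8.45 in extract rats, against 7.37 to 7.94 with a median of 7.64 in control rats. Extract rats 1 and 2 stood apart at 8.85 and 9.03, the other 5 lay within 8.38 to 8.48, and the groups did not overlap. The log2 fold was 0.91 ± 0.11 (SE; 95% interval 0.67 to 1.15, limma's adjusted p = 0.000105). Txn1, among the brightest genes on the array, ran from 13.12 to 13.30 with a median of 13.21 in extract rats, against 13.08 to 13.27 with a median of 13.14 in control rats. Its log2 fold was 0.04 ± 0.05 (SE), and the 95% interval of -0.07 to 0.16 bounds a rise at 1.12-fold on this scale, where very bright probes can be compressed (limma's adjusted p = 0.80).

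Srxn1 encodes sulfiredoxin, which repairs hyperoxidised peroxiredoxins at the cost of ATP. It ran from 5.44 to 5.96 with a median of 5.85 in extract rats, against 4.98 to 5.50 with a median of 5.18 in control rats. Extract rats 6 and 7, at 5.44 and 5.53, lay near the highest control rats, and 6 of 7 extract rats exceeded the highest control rat. The groups overlapped, with 3 control rats above the lowest extract rat. The means were 5.78 ± 0.21 in extract rats and 5.25 ± 0.23 in control rats (SD, n = 7 each), the control mean being close to 5.10, the median of all probes. The log2 fold was 0.53 ± 0.11 (SE; 95% interval 0.31 to 0.76, limma's adjusted p = 0.00861).

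Ephx1 encodes microsomal epoxide hydrolase, which turns reactive epoxides into dihydrodiols and in rat liver is also known to be induced by phenobarbital-type compounds. It ran from 12.83 to 13.29 with a median of 13.02 in extract rats, against 11.86 to 12.67 with a median of 12.09 in control rats. Control rats 1 and 5, at 12.67 and 12.63, stood above the other 5 control rats and came close to the lowest extract rat, which lay 0.16 above the higher of them. The SD was smaller in extract rats (0.16) than in control rats (0.32), again without a test. The log2 fold was 0.84 ± 0.12 (SE; 95% interval 0.58 to 1.096, limma's adjusted p = 0.000498).

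Pir encodes pirin, an iron-binding nuclear protein of the cupin family that modulates NF-kB. It ran from 8.11 to 9.01 with a median of 8.67 in extract rats, against 6.93 to 7.92 with a median of 7.14 in control rats. Control rat 1 was the highest control by a wide margin, at 7.92 against 7.47 in the next, and extract rat 7 the lowest extract rat. The groups did not overlap, and the log2 fold was 1.35 ± 0.15 (SE; 95% interval 1.03 to 1.67, limma's adjusted p = 3.44e-05).

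Osgin1 encodes an oxidative stress-induced inhibitor of cell growth. It ran from 9.27 to 9.97 with a median of 9.46 in extract rats, against 8.60 to 9.23 with a median of 8.76 in control rats. The groups were separated by only 0.039, since control rats 3 and 5 stood at 9.12 and 9.23. Extract rat 1, at 9.97, stood far above the next extract rat, at 9.54, and without it the log2 fold was 0.58. The log2 fold was 0.66 ± 0.12 (SE; 95% interval 0.41 to 0.91, limma's adjusted p = 0.00346).

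Trim16 encodes a ubiquitin ligase of the tripartite motif family that takes part in the handling of damaged proteins and endomembranes. It ran from 4.70 to 5.10 with a median of 4.79 in extract rats, against 4.02 to 4.59 with a median of 4.44 in control rats. These values lay below 5.10, the median of all probes. The log2 fold of Trim16 was 0.48 ± 0.09 (SE, 95% interval 0.29 to 0.67, limma's adjusted p = 0.00529). Whether dimness made this fold too small was not tested. The groups did not overlap, and 0.11 separated the lowest extract rat from the highest control rat.

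**Figure D2:**
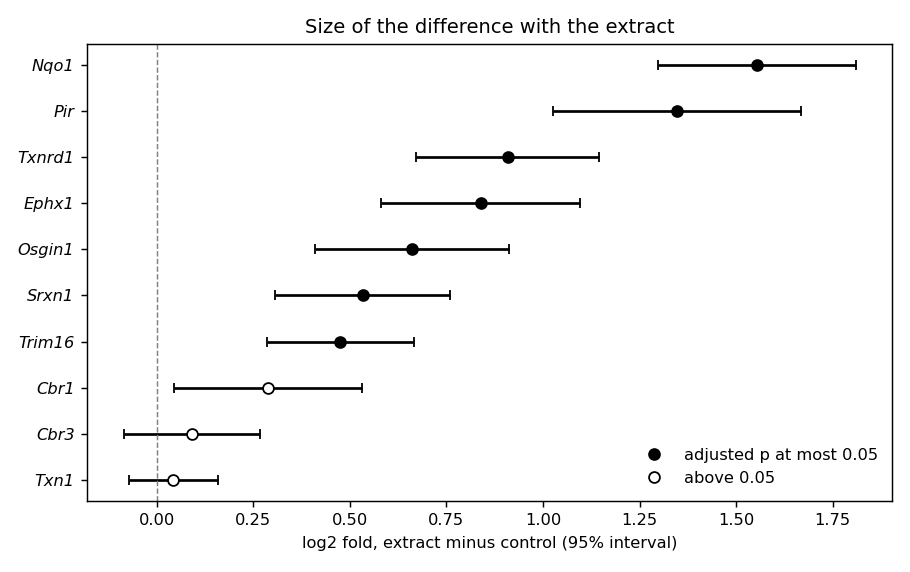
Log2 fold, extract minus control, of the 10 genes (horizontal axis) with limma's 95% interval (n = 7 rats per group); filled points passed an adjusted p of 0.05 and open points did not. Folds step down from 1.55 in Nqo1 to 0.04 in Txn1, with intervals that overlap between neighbours.

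Arranged by size, the folds of the 10 genes stepped down gradually. Each of the 9 pairs of neighbours in that order was tested by taking the difference of the paired values in each rat and permuting the 14 rats exactly, two-sided. In 0 of 9 pairs did the difference pass after Benjamini-Hochberg adjustment over the pairs, and 0 of 9 had an unadjusted p under 0.05. The largest step lay between Pir and Txnrd1, at 0.44 ± 0.23 (SE; exact permutation p = 0.0787, adjusted 0.494). Nqo1 exceeded Pir by 0.21 ± 0.17 (SE; exact permutation p = 0.226, adjusted 0.494), and Cbr1 exceeded Cbr3 by 0.20 ± 0.13 (SE; exact permutation p = 0.163, adjusted 0.494). Neighbours were therefore not told apart beyond the spread between rats. The order came from the same folds, so steps between neighbours are small by construction, and this result does not show equal folds. The interval of Nqo1 (1.30 to 1.81) lay wholly above that of Txnrd1 (0.67 to 1.15) and those of all genes with smaller folds. That of Pir (1.03 to 1.67) lay wholly above that of Osgin1 (0.41 to 0.91). Some other genes that were not neighbours had overlapping intervals, such as Pir with Ephx1 and Txnrd1 with Srxn1. Folds of different probes can be compressed to different degrees, which limits any order.

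**Figure D3:**
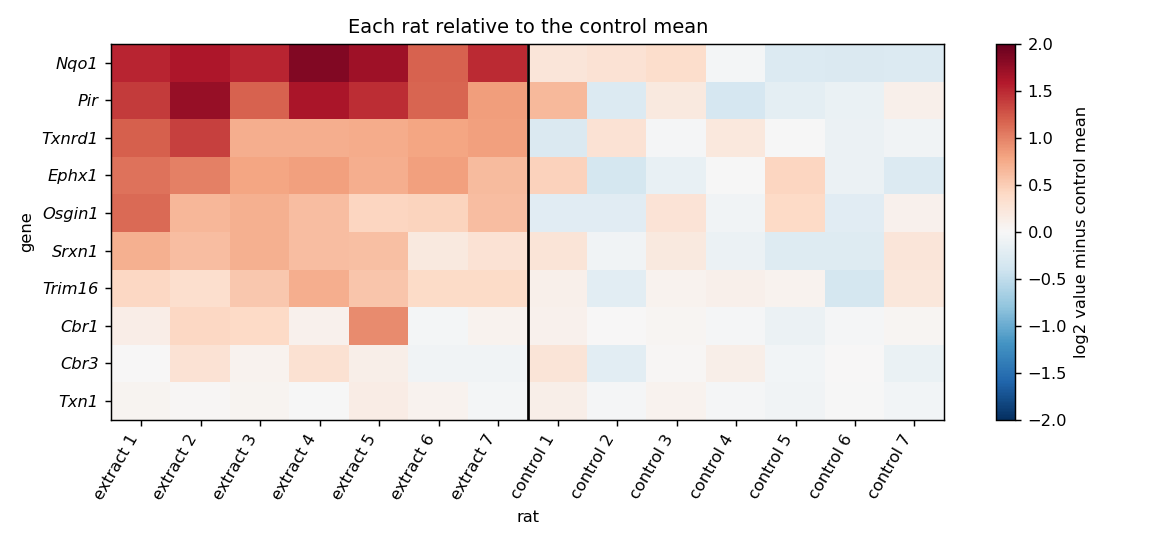
Log2 value minus the control mean (colour scale) for the 10 genes (rows, by falling fold) in each of the 14 rats (columns), with extract rats left of the line and control rats right. Every extract rat is red across the upper rows, and averaged over the 10 genes rats 6 and 7 lie lowest among the extract rats.

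Averaged over all 10 genes, the log2 values of single extract rats lay between 0.49 and 0.80 above the control mean, while single control rats lay between -0.15 and 0.17 around it. The lowest averages were those of extract rats 6 (0.493) and 7 (0.504), and the highest those of rats 1 (0.766) and 2 (0.804). These averages describe a list chosen with results known and were not tested. The genes did not all rank the rats alike, and their agreement in rank was not tested. Extract rat 4 was highest in Nqo1, Cbr3 and Trim16, rat 1 in Srxn1, Ephx1 and Osgin1, and rat 2 in Txnrd1 and Pir. Among extract rats, rat 7 was lowest in 4 of the 10 genes and rat 6 in 3. Control rat 1 was the highest control in 6 of the 10 genes and the lowest in Txnrd1 and Osgin1. It also had the lowest array weight in limma (0.41), and extract rat 4 had the next lowest (0.46). Without control rat 1 the same 7 genes passed, with log2 folds of 1.59 in Nqo1, 1.45 in Pir and 0.92 in Ephx1.

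Whether rats high in Nqo1 were also high in the other genes was asked within each group, because the groups form separate clusters in Nqo1. Of 18 relations (9 genes in 2 groups of 7 rats), 0 passed after adjustment by Pearson's r and 0 by Spearman's rho, with exact permutation of the pairings. The smallest unadjusted p by Pearson's r was that of Cbr3 in extract rats (r = 0.78, exact permutation p = 0.029, adjusted 0.448; rho = 0.89, exact permutation p = 0.0123, adjusted 0.214), and r was 0.63 without the 2 rats farthest from the median of Nqo1. Pir in extract rats had r = 0.60 (exact permutation p = 0.149, adjusted 0.448) and rho = 0.86 (exact permutation p = 0.0238, adjusted 0.214), with r = 0.69 without those 2 rats. Txnrd1, whose groups did not overlap, had r = -0.0015 with Nqo1 in extract rats (exact permutation p = 0.999, adjusted 0.999; rho = -0.14, exact permutation p = 0.783, adjusted 0.939; r = 0.035 without the 2 farthest rats). With 7 rats a relation must be strong to pass, so a looser one was not detectable.

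**Figure D4:**
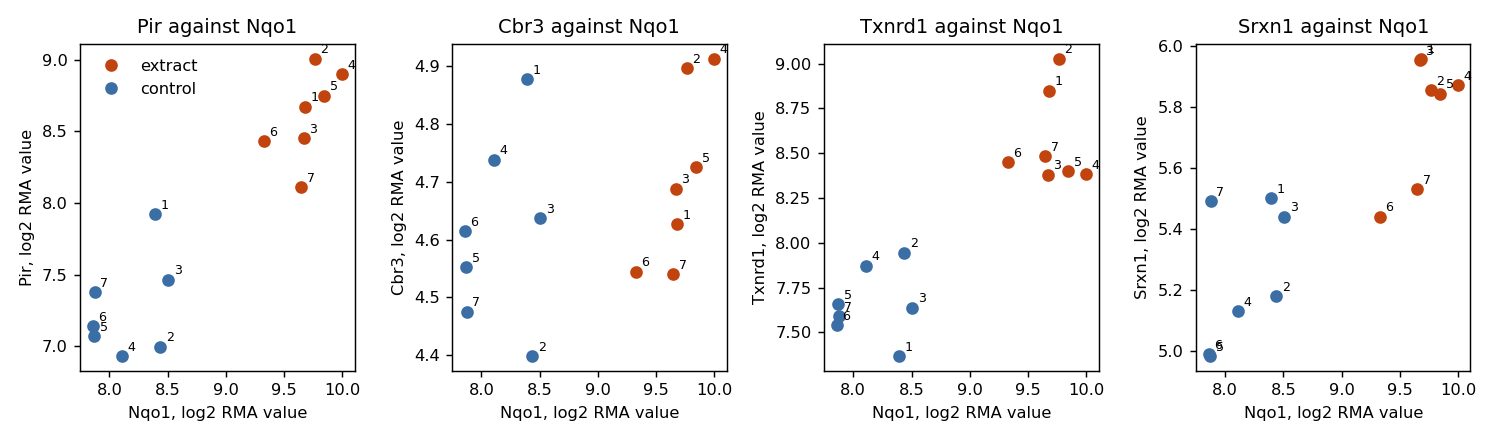
Log2 RMA values of Pir, Cbr3, Txnrd1 and Srxn1 (vertical axes) against that of Nqo1 (horizontal axes) in the same rat, with extract rats in orange, control rats in blue and the rat's number beside each point. Each group forms its own cluster in Nqo1, and within extract rats Txnrd1 shows no slope (r = -0.0015) while Cbr3 rises with Nqo1 (r = 0.78, not passing after adjustment).

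Over all pairs of the 10 genes, a set of 90 relations added after the values were seen, the median Pearson r was 0.30 in extract rats and 0.24 in control rats (45 pairs each). Only 1 pair passed by Pearson's r, Cbr1 with Srxn1 in control rats (r = 0.87, exact permutation p = 0.000397, adjusted 0.0357), but not by rank (rho = 0.96, exact permutation p = 0.00278, adjusted 0.25), and r was 0.97 without the 2 rats farthest from the median of Cbr1. With the other Cbr1 probe r was 0.53 (adjusted p = 0.66, exact permutation), and the call was also lost after median centring (r = 0.81, adjusted p = 0.33, exact permutation), so that it rests on the chosen probe and scaling. In extract rats the same pair had r = 0.45 (exact permutation p = 0.306, adjusted 0.749; rho = 0.39, exact permutation p = 0.396, adjusted 0.868; r = 0.71 without the 2 farthest rats). By rank 0 of the 90 relations passed.

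Across all 14 arrays, the 5 genes outside the list whose values followed Nqo1 most closely were Gsr, Akr1b8, Gclm, Akr7a3 and Ces1f, with Pearson r from 0.94 to 0.98 over 14 rats. They are glutathione reductase, an aldo-keto reductase, the modifier subunit of the enzyme that starts glutathione synthesis, an aldehyde reductase and a carboxylesterase. These values mostly carry the difference between the groups and are a description. Within the groups the likeness was uneven: Gsr had r = 0.69 in extract rats and 0.68 in control rats, Gclm had r = 0.73 in extract rats and 0.63 in control rats, whereas Ces1f had r = -0.72 in extract rats and 0.74 in control rats, values that were not tested. Of the 10 genes Pir came closest to Nqo1 over the 14 arrays (r = 0.93, place 15 among all genes) and Cbr3 least close (r = 0.41, place 2044).

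Of 22 measured NRF2 targets outside the 10 genes (24 listed), 15 rose, 0 fell and 7 did not pass, with a median log2 fold of 0.78. Over all genes 2.00% rose and 1.15% fell, with a median log2 fold of -0.00088. The smallest p-values were those of the aldo-keto reductase genes Akr1b8 and Akr7a3, the conjugate exporter gene Abcc3 and Gsr. Akr1b8 averaged 10.76 ± 0.22 in extract rats and 6.19 ± 0.88 in control rats, and Gsr averaged 10.50 ± 0.11 in extract rats and 9.66 ± 0.14 in control rats (SD, n = 7 each). On the log2 scale the folds were 4.57 for Akr1b8, 2.21 for Akr7a3, 1.97 for Abcc3 and 0.84 for Gsr (limma's adjusted p from 2.71e-08 to 1.42e-06). By comparison the rise of Nqo1, at 1.55, was smaller than those of Akr1b8, Akr7a3 and Abcc3, and their differences were not tested.

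limma called 0 of 13 genes of NRF2 control (3 had an unadjusted p under 0.05), with a median log2 fold of 0.07. With 3.15% of all genes called, a count of 0 in a list of this size is near the background. Bach1, a repressor that competes at the same elements, had the smallest p, with 8.63 ± 0.11 in extract rats and 8.39 ± 0.12 in control rats (SD, n = 7 each; log2 fold 0.25, limma's adjusted p = 0.064; it passed under 5 of 26 other settings, 2 of which left out extract rat 6 or control rat 7). Nfe2l2, which encodes NRF2, averaged 10.36 ± 0.21 in extract rats and 10.63 ± 0.14 in control rats (SD, n = 7 each), a log2 fold of -0.27 that did not pass (limma's adjusted p = 0.13; 0.040 with array weights). Keap1 averaged 8.45 ± 0.17 in extract rats and 8.36 ± 0.25 in control rats (SD, n = 7 each; log2 fold 0.09, limma's adjusted p = 0.76).

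Beyond Txnrd1, Txn1 and Srxn1, limma called 1 of 16 measured genes of the thioredoxin system and its peroxiredoxins (18 listed), with a median log2 fold of 0.12. With 3.15% of all genes called, 1 call in a list of this size is near the background and is no result about the list. Glrx2, a mitochondrial glutaredoxin, rose by 0.23 ± 0.06 on the log2 scale (SE), with 10.10 ± 0.07 in extract rats and 9.87 ± 0.09 in control rats (SD, n = 7 each; limma's adjusted p = 0.041). That call was lost without any 1 of 11 of the 14 rats (all but extract rats 6 and 7 and control rat 1), and in 4 of the other settings, with adjusted p up to 0.13. Txnip, the inhibitor that binds thioredoxin, had a log2 fold of -0.13, with 9.94 ± 0.23 in extract rats and 10.07 ± 0.15 in control rats (SD, n = 7 each; limma's adjusted p = 0.60).

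Among 12 measured reductases, hydrolases and homologues of the 10 genes (13 listed), 3 rose, 0 fell and 9 did not pass, beside 2.00% of all genes higher and 1.15% lower. All 12 log2 folds were positive, beside 49.7% of those of all genes, with a median of 0.17. Ptgr1, which reduces unsaturated aldehydes and ketones, had 9.62 ± 0.22 in extract rats and 9.02 ± 0.16 in control rats (SD, n = 7 each; log2 fold 0.60, limma's adjusted p = 0.00145). Nqo2, the paralogue of Nqo1 that uses dihydronicotinamide riboside, had 10.67 ± 0.08 in extract rats and 10.33 ± 0.14 in control rats (SD, n = 7 each; log2 fold 0.34, limma's adjusted p = 0.010). Por, the reductase that feeds electrons to microsomal cytochromes P450, had a log2 fold of 0.55 (limma's adjusted p = 0.037), a call lost without any 1 of 8 rats (extract rats 1, 2, 3, 5 and 7 and control rats 3, 4 and 6) and under 2 other settings.

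**Figure D5:**
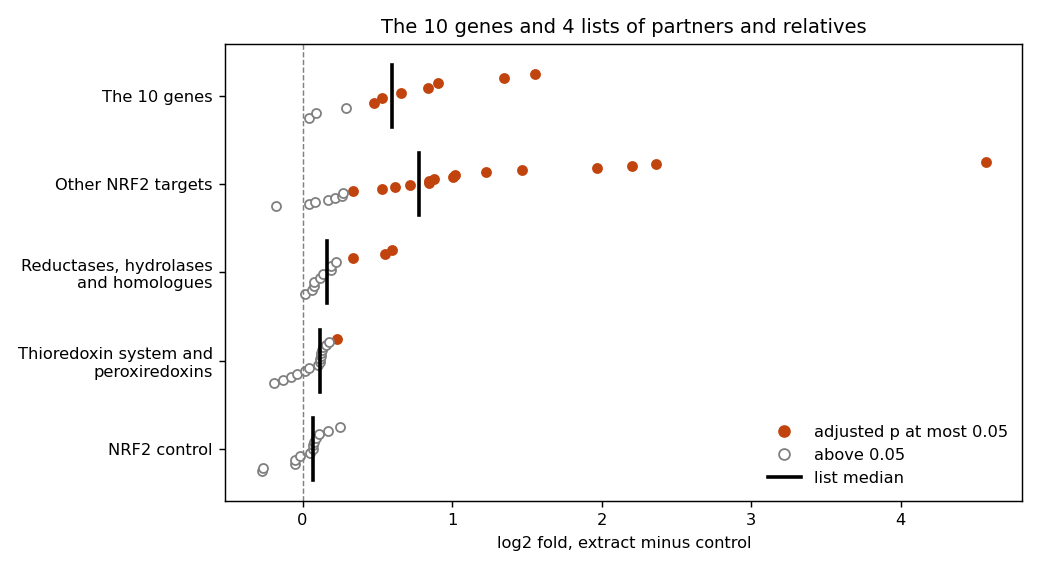
Log2 folds, extract minus control (horizontal axis), of the 10 genes and of 4 lists of related genes (rows), 1 point per measured gene; filled points passed limma's adjusted p of 0.05, open points did not, and the bar is the list's median. Medians are 0.60 for the 10 genes, 0.78 for other NRF2 targets, 0.17 for reductases, hydrolases and homologues, 0.12 for the thioredoxin system and 0.07 for NRF2 control.

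Over all genes, pairs of arrays correlated between 0.984 and 0.997, and array medians over all probes lay between 5.02 and 5.15. The number of arrays limits the precision, with a median standard error of 0.087 for a log2 fold. The labelled tissue was checked by hepatocyte markers, whose mean lay between 12.7 and 12.8 in both groups, with 0 of 8 called by limma (3 of 8 log2 folds positive). Macrophage markers were lower with the extract: all 8 of 8 measured had a negative log2 fold, and 2 of them (Marco and Vsig4) passed. Over all genes, 1.15% passed as lower with the extract and 49.7% had a positive log2 fold. The mean of the macrophage list ran from 8.33 to 8.67 in extract rats, against 8.73 to 8.97 in control rats. Endothelial markers had 4 of 4 negative log2 folds with 0 called, with list means of 8.54 to 9.11 in extract rats and 8.95 to 9.09 in control rats. Means of cholangiocyte markers ran from 4.66 to 5.03 in extract rats and from 4.45 to 4.87 in control rats, with 0 of 5 called. Of 6 stellate cell markers 0 were called, and 3 log2 folds were negative and 3 positive, from -0.48 to 0.22. Markers of lymphocytes (3 measured), blood (2) and pancreas and fat (4) had 0 called. The part of cell composition in the rise of the 10 genes was not tested, and in bulk liver fewer cells of a type and less RNA per cell cannot be told apart.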

How the data were processed

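Total liver RNA of 14 rats was hybridised to Affymetrix whole-transcript arrays, 1 per rat, per the labels' protocols. The authors deposited log2 expression values of 29215 probes (transcript clusters); the log2 scale was read from their range (1.95 to 14.0). The tools named per the submitters' processing notes are RMA and version 1.1.2 of Affymetrix Expression Console; options and genome build are not given in the sources used here. No detection calls or batches were used.

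Gene names of probes came from the platform annotation at GEO (15310 with 1 gene symbol, 323 with several, 13582 unnamed here), with symbols checked by Entrez identifier against the GRCr8 gene table (15279 found, 0 changed). Where a gene had several probes (527 genes), the brightest stood for it. Cbr1 alone of the 10 had a second probe.

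Groups and rat numbers came from the sample titles. Genes were compared with limma 3.58.1 (lmFit, eBayes, two-sided, no covariate) in R 4.3.3, and p-values adjusted by Benjamini-Hochberg over 14506 genes at 0.05. Folds are extract minus control. Correlations within groups and differences between neighbouring folds were tested by exact permutation in Python 3.11.15. Beyond the 10 genes, genes were named by a rule: from each list the 4 genes that passed with the smallest p-values (where none passed, the 1 gene with the smallest p), Nfe2l2, Keap1, Txnip, and the 5 genes most like Nqo1. The genes, lists and tests were chosen with earlier results of these data known. In simulated data with 200 changed genes among 14506, limma recovered 87.0% of changes of 0.5 and 99.8% of changes of 1 on the log2 scale, with 4.79% false calls, under independent noise.

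The values were also analysed after median centring or a further quantile normalization, under 2 minimum levels, with all probes of a gene or every probe, with weighted arrays, an intensity trend, a replicate block, unequal variances, an adjusted p of 0.1, and without each array in turn; a fit without the 2 arrays of lowest weight, the spread of Cbr1 without extract rat 5 and the 90 pairwise relations were added after the data were seen.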

Additional observations from a re-analysis of the deposited data

Results flagged for a closer look

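In Osgin1, extract rat 1 stood far above the other extract rats, at a log2 value of 9.97, with the next rat at 9.54 and the lowest at 9.27. The gap to its neighbour was 0.607 of the group's range, above the critical value of 0.568 for 7 samples. Of 20 groups examined (10 genes in 2 groups) 1 was marked in this way, and chance marks about 1 in 20. Without that rat Osgin1 still passed, with a log2 fold of 0.58 (limma's adjusted p = 0.00566).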

How the results depend on the processing

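For each of the 10 genes, direction and call held under every alternative that could be run, 254 values in all with 0 changed calls; both filters on dim genes leave out Cbr3, Srxn1 and Trim16, and 5 of the remaining 7 genes passed under them. Leaving out 1 array gave 7 called genes each time, log2 folds of 1.505 to 1.62 in Nqo1 and 1.28 to 1.45 in Pir, and, in the differences between neighbouring folds, 0 pairs called each time. The fold of Txnrd1 minus that of Ephx1, 0.070 in all rats, ran from -0.056 (without control rat 1) to 0.18. Over all genes, 457 calls (290 higher, 167 lower) became 694 with array weights (262 lower), 227 in the unequal-variance test per gene (171 higher, 56 lower), which lacks moderation, and 719 at an adjusted p of 0.1 (291 lower). Leaving out 1 array gave 326 to 621 calls, of which 209 to 329 were higher and 116 to 292 lower; the most lower calls came without control rat 1. After median centring 74.2% of calls were higher, against 63.5% before it, with no changed call among the 10 genes. Calls among related genes (19 of 63) ranged from 15 to 20 when 1 array was left out. With the rat number as a replicate block, 364 genes were called, 7 of the 10 among them. Glrx2 lost its call there (adjusted p = 0.13 in limma). The sample titles do not say that rat numbers pair the samples. Same-numbered rats' deviations correlated from -0.46 to 0.28, and only 2 of 7 extract rats were closest to the control rat of their number. These values gave no sign of a pairing but cannot exclude one. Precision rests on 7 arrays per group, and the dim signals of Cbr3, Srxn1 and Trim16 limit what their folds can show.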
